A study of Bos taurus with 63 samples.

Results

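Globin transcripts were described in leukocytes of German Holstein dams and female calves, in blood from which the red cells had been lysed. The rows were selected by identifier from a list of 4 Ensembl genes named after globin chains, with their levels in these animals already known, so their levels are given as a description without a test. Of the 4 identifiers, 3 are among the 23010 genes counted. These are ENSBTAG00000037644, listed as HBG, ENSBTAG00000051412, listed as HBA, and ENSBTAG00000038748, listed as HBB. The remaining identifier, ENSBTAG00000026417, also listed as HBA, is not analysed here.

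Haemoglobin is the oxygen carrier of red cells and is built from alpha chains and beta-type chains, which red cell precursors make in balance. The beta-type chain changes during development, from embryonic and fetal chains to the adult chain, and HBB is the usual name for the adult beta chain, HBA for the alpha chain and HBG for a fetal chain. Mature red cells of mammals have no nucleus, but young red cells, the reticulocytes, keep globin mRNA for some time. Globin reads in a leukocyte preparation can therefore come from red cells or reticulocytes that were not removed. In such bulk RNA, fewer cells of a type and less RNA per cell cannot be told apart.

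The study compared dams with direct heat stress (HS) before blood sampling, by a temperature-humidity threshold of 60, with control dams, and it also sampled calves by HS status. The libraries were 19 from control dams, 12 from direct HS dams and 30 from control calves, all without a further treatment in the labels. The study took blood in separate periods over different years, and neither sampling date nor batch entered any comparison here. A single calf was labelled with HS, and 1 dam, HS-IU_1804, had no HS status in the labels, so both are given as single values apart from the groups. The study left HS-IU_1804 out of its comparison of dams. On the 130 genes whose levels did not overlap between control calves and control dams, this library was nearer to the calf median on 94 and nearer to the dam median on 36, so it goes against its label as a dam on most of them. By the methods of the study, the dams were dry and in the last 12 days before calving, and the calves were newborn, in their first weeks of life. The labels call the tissue whole blood, give neither the age in days nor the days to calving, and do not say which calf belongs to which dam.

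Each library held 4340680 to 19584521 reads assigned to genes, with medians of 6782690 in control dams, 7126773 in direct HS dams and 7704226.5 in control calves. Among the 1953 pairs of libraries, the lowest chi-square per gene was 6.02, where 1 is counting noise, so no library was taken for a second copy of another. Some females of the study were sampled both as calves and before their first calving, and the labels do not say whether any of these libraries come from the same animal. The identifiers of the counts could not be paired with gene symbols, and leukocyte and erythroid markers could not be checked.

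The globin rows took a small share of the reads in every animal. The share of all reads was 0.00331% to 0.0226% in control dams, with a median of 0.00663%. It was 0.00258% to 0.0196% in direct HS dams, with a median of 0.00993%. In control calves it was 0.000882% to 0.107%, with a median of 0.0109%. The calves reached higher than either group of dams, and the lowest value was that of 1 calf, HS-IU_2010, without which the lowest calf was at 0.0027%, above the lowest direct HS dam. Levels below are in CPM, the count divided by the library total on a common scale, after TMM, a normalization for differences in library composition, unless stated otherwise.

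Nearly all globin reads of the dams were on the row that carries the name of a fetal chain. Over all control dams, ENSBTAG00000037644 held 13951 reads, ENSBTAG00000051412 held 52 and ENSBTAG00000038748 held 32, so that 99.4% of the globin reads were on the first row. Over all direct HS dams the same rows held 8545, 16 and 13 reads, and the first row held 99.7%. In adult cows, these counts go against the names HBB for the adult chain and HBG for a fetal chain as labels of these rows. Which globin each row counts could not be checked, so the rows are called by identifier. Shares of reads are not corrected for gene length, so they are not shares of transcripts, and reads of near-identical globin copies may have been lost or split when only reads with 1 mapping position were counted.

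The level of ENSBTAG00000037644, the row with most of the reads, overlapped widely between the groups. In control dams it was lowest at 31.7 CPM, with a median of 70.2 and a highest value of 214.3. In direct HS dams the values were 24.5, 99.5 and 181.8 CPM, and in control calves 10.8, 106.9 and 924.5 CPM. The means were 91.8 ± 60.3 CPM (SD, n = 19) in control dams, 96.4 ± 44.3 (SD, n = 12) in direct HS dams and 173.3 ± 189.8 (SD, n = 30) in control calves. By median, the order was control calves, direct HS dams and control dams, and no neighbouring pair in this order differed beyond its spread. The highest animal had 6.76 times the level of the lowest among control dams, 7.43 times among direct HS dams and 85.3 times among control calves. The last value rests on single calves at both ends, and it was 45.8 without HS-IU_2026, the highest, and 38.1 without HS-IU_2010, the lowest.

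The row ENSBTAG00000051412, named after the alpha chain, had few counted reads in the dams and more in the calves. In control dams it was lowest at 0, with a median of 0.185 and a highest value of 1.77 CPM, and 4 of the 19 libraries had no read. In direct HS dams the values were 0, 0.193 and 0.662 CPM, and 5 of the 12 libraries had no read. In control calves they were 0.129, 3.39 and 112.8 CPM, and every one of the 30 libraries had at least 1 read. No dam had more than 12 reads on this row, whereas the calves had 1 to 1085 reads with a median of 24. Of the 30 control calves, 20 were above the highest of the 31 dams with an HS status, and no dam was above the calf median. Reads of near-identical copies may have been lost in mapping, so few counted reads do not show that alpha chain transcripts were absent.

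The row ENSBTAG00000038748, named after the adult beta chain, was the lowest of the rows in reads in every group. In control dams it was lowest at 0, with a median of 0.167 and a highest value of 1.04 CPM, and 8 of the 19 libraries had no read. In direct HS dams the values were 0, 0.124 and 0.439 CPM, with no read in 5 of the 12 libraries. In control calves they were 0, 0.888 and 32.8 CPM, with no read in 2 of the 30 libraries. In dams this row rested on at most 7 reads per library, so differences between dams rest on few reads. In calves it had 0 to 315 reads with a median of 8, and 13 of the 30 calves were above the highest dam.

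**Figure D1:**
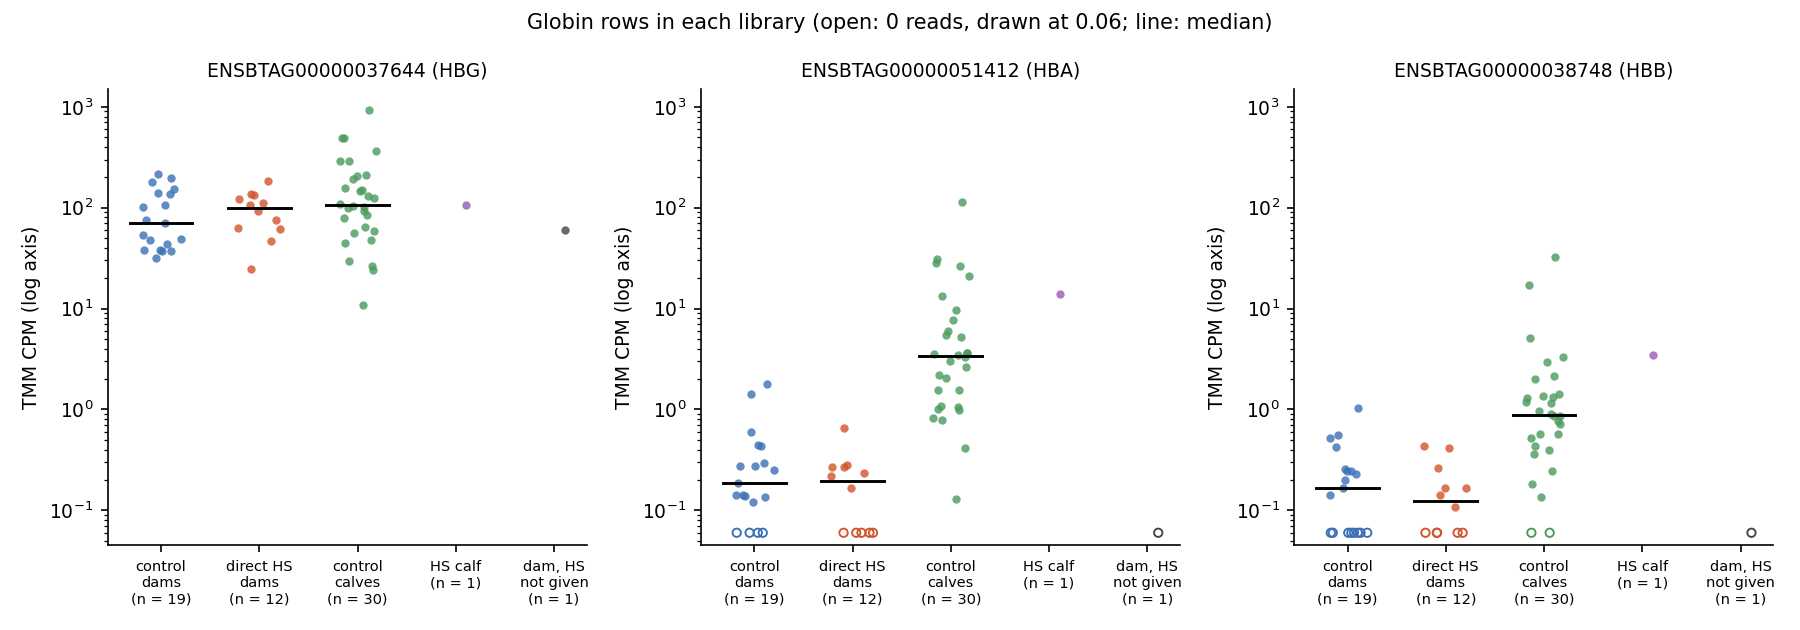
TMM CPM of ENSBTAG00000037644, ENSBTAG00000051412 and ENSBTAG00000038748 (panels, log axis) in each library of the control dams, direct HS dams and control calves and in the 2 single libraries; points are libraries, lines are medians and open points are libraries with 0 reads, drawn at 0.06. The first row overlaps in all groups, with calf values up to 924.5, whereas on the second row 20 of the 30 calves lie above every dam with an HS status.

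To describe direct HS in dams, the globin rows were set beside the test of all genes. With edgeR's quasi-likelihood test and Benjamini-Hochberg adjustment, 310 of 11645 genes were called at an adjusted p below 0.05 (2.66%), of which 89 (28.7%, or 15.5% of the calls without scaling factors) were higher and 221 lower in direct HS dams, and 0% of the genes had groups that did not overlap. This background is not firm, since the count was 130 without the dam HS-IU_1516, 599 without HS-IU_1568 and 503 with DESeq2. For ENSBTAG00000037644 the direct HS dams had a log2 fold change of 0.06 (SE 0.30) against control dams. Of the 12 direct HS dams, 8 were above the control median, 0 were above the highest control dam and 1 was below the lowest. The medians differed by 1.42 times and the means by 1.05 times, so the median and the mean gave different sizes. The fold change was smaller than its SE, and the difference was small beside the spread within either group.

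The other globin rows were below the mean count of 14 in the dams and were not in that fit. Over all control dams, ENSBTAG00000051412 had 0.366 CPM without scaling (95% Poisson interval 0.274 to 0.48), and over all direct HS dams 0.186 (0.106 to 0.302). For ENSBTAG00000038748 the corresponding values were 0.225 (0.154 to 0.318) and 0.151 (0.0803 to 0.258). These intervals cover counting error only, not the spread between animals. In a fit without the limit on low counts, which takes that spread into account, the log2 fold change of direct HS against control dams was -0.91 (SE 0.61) for ENSBTAG00000051412 and -0.52 (SE 0.63) for ENSBTAG00000038748. Both pooled levels were lower in direct HS dams, but the median of ENSBTAG00000051412 was not, at 0.193 CPM against 0.185 in control dams. Of its 52 reads in control dams, HS-IU_1463, HS-IU_1577 and HS-IU_1727 held 12, 11 and 9. The values of both rows rest on few reads.

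Control calves and control dams were compared in the same way, both labelled as without heat stress. For calves the study distinguished HS before sampling from HS of the dam in late gestation, and the labels do not say which is meant, so calves with the other exposure may be among them. Here 4665 of 11762 genes were called (39.7%), 56.2% of them higher in calves (35.8% without scaling factors), and 130 genes (1.11%) had groups that did not overlap. The groups overlapped on each of the 3 globin rows. The log2 fold change of calves against dams was 4.81 (SE 0.70) for ENSBTAG00000051412, 3.58 (SE 0.68) for ENSBTAG00000038748 and 0.91 (SE 0.36) for ENSBTAG00000037644, where the median of all genes tested was 0.03. The first 2 of these rows passed the limit on low counts only through the calves and were bound to differ, so their folds describe the levels and support nothing further.

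A few calves held many of the reads, and the size of the difference depended on the summary. The ratio of the calf median to the median of the control dams was 18.3 for ENSBTAG00000051412, 5.32 for ENSBTAG00000038748 and 1.52 for ENSBTAG00000037644. On ENSBTAG00000051412 and ENSBTAG00000038748 the control dams had a median of 1 read, so the ratios of these rows are imprecise. The ratios of the means were larger, at 29.1, 12.9 and 1.89. On ENSBTAG00000037644, 6 calves were above the highest control dam and 4 were below the lowest, and 11 of 31 dams were above the calf median.

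The calves HS-IU_2026, HS-IU_2032 and HS-IU_2052 took the 3 highest places on each of the globin rows. HS-IU_2026 was first on all of them, with 8892 reads on ENSBTAG00000037644, 1085 on ENSBTAG00000051412 and 315 on ENSBTAG00000038748. HS-IU_2052 had 4173, 262 and 43 reads on these rows, and HS-IU_2032 had 3364, 196 and 119. Together these 3 calves held 41.5% of all globin reads of the 30 control calves, and HS-IU_2026 alone 23.2%. At the other end, calf HS-IU_2010 had 84, 1 and 0 reads on the same rows in a library of 9634902 reads.

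Outside globin, the 3 calves did not stand apart by the number of genes far above the group. Of 11733 genes without the globin rows, 6 had at least 8 times the calf median in HS-IU_2026, 8 in HS-IU_2032 and 15 in HS-IU_2052. The median calf had 6.5 such genes and the highest 167, and 4 calves had more than HS-IU_2052. This limit is coarse. ENSBTAG00000037644 itself did not reach it in HS-IU_2032, at 488.8 CPM, or in HS-IU_2052, at 495.7, against a calf median of 106.9. Smaller differences outside globin are not covered by this count. Without the 3 calves, the log2 fold change against control dams was 3.73 (SE 0.53) for ENSBTAG00000051412 and 0.41 (SE 0.30) for ENSBTAG00000037644. ENSBTAG00000038748 then fell below the mean count limit, and its fold without that limit was 2.10 (SE 0.44). The ratio of the means to those of the control dams became 4.66 for ENSBTAG00000038748 and 1.33 for ENSBTAG00000037644, and the calf mean of ENSBTAG00000051412 went from 10.1 to 4.88 CPM. All 3 rows remained higher on average in calves than in control dams, by a smaller factor.

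The make-up of the globin reads also differed between calves and dams. ENSBTAG00000051412 was 0% to 1.15% of the globin reads in control dams, with a median of 0.364%, and 0% to 1.1% in direct HS dams, with a median of 0.195%. In control calves it was 0.285% to 23.3%, with a median of 2.95%, and 26 of the 30 calves were above every one of the 31 dams. By level, 20 calves were above all those dams on this row. The ratio of the calf median to that of the control dams was smaller for the share, at 8.09, than for the level, at 18.3. The highest share was in calf HS-IU_2013, with 160 reads on this row and 514 on ENSBTAG00000037644, which was not among the 3 calves with the most globin. Any globin reads lost in mapping would change these shares, and this was not tested.

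Compared with ENSBTAG00000037644 alone, ENSBTAG00000038748 was also a larger part of the reads in calves. Its share of the reads on these rows together, which does not depend on their doubted names, was at most 0.882% in control dams and 0.687% in direct HS dams, with medians of 0.143% and 0.0822%. In control calves it reached 5.53% with a median of 0.676%, and 13 of the 30 were above the highest dam, as many as by level. Over all control calves, 92.9% of the globin reads were on ENSBTAG00000037644, 5.58% on ENSBTAG00000051412 and 1.54% on ENSBTAG00000038748. The row with the name of a fetal chain thus held most of the globin reads in calves too, and a smaller part than in dams.

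**Figure D2:**
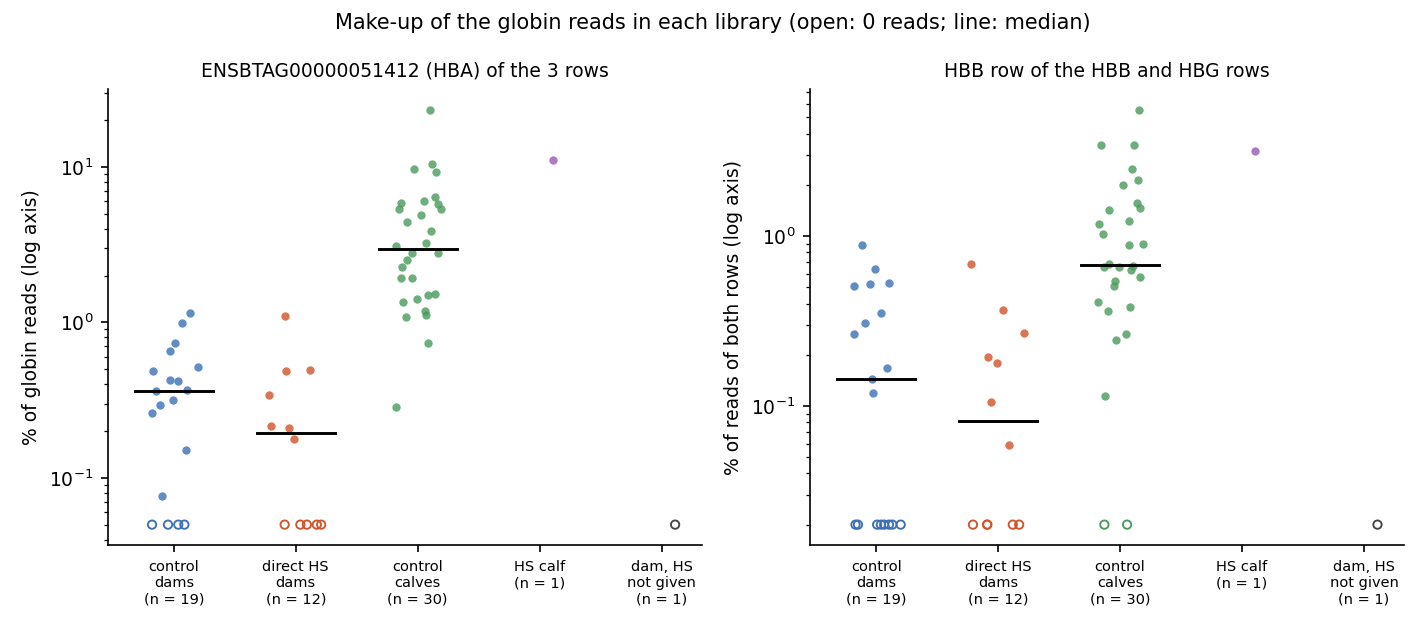
Share of ENSBTAG00000051412 in the reads of all 3 globin rows (left) and of ENSBTAG00000038748 in its reads together with those of ENSBTAG00000037644 (right), in percent on a log axis, for each library by group; lines are medians and open points are libraries with 0 reads. On the left, 26 of the 30 control calves lie above every dam with an HS status, and on the right 13 do.

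Between animals, ENSBTAG00000037644 varied more than most genes in each group, and in calves the other globin rows did so too. In dams the other rows had too few reads to be ranked. The coefficient of variation of ENSBTAG00000037644 in CPM without scaling was 66.2% in control dams, where the median gene had 21.8% and 96.9% of 11668 genes varied less. Among direct HS dams it was 47.7%, higher than in 93.4% of 11595 genes. In control calves it was 111%, higher than in 98.5% of 11736 genes, and it was 214% for ENSBTAG00000051412 and 241% for ENSBTAG00000038748, each above 99.9% of the genes. A few calves carried much of this spread. Without HS-IU_2026 it was 84.6% for ENSBTAG00000037644, 131% for ENSBTAG00000051412 and 193% for ENSBTAG00000038748, and without the 3 calves with the most globin 71.4%, 127% and 79.2%. Without HS-IU_2026, ENSBTAG00000038748 also fell below the mean count limit for ranked genes, so its rank rests on that calf.

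The spread was also set beside counting noise. The chi-square per degree of freedom, which is 1 for counting noise, was 307 in control dams, 183 in direct HS dams and 1950 in control calves for ENSBTAG00000037644. For ENSBTAG00000051412 it was 4.8, 1.57 and 429 in the same groups, and for ENSBTAG00000038748 2.4, 1.34 and 142. This measure grows with the number of reads, so the rows and groups are not ranked by it.

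In control calves, animals high on one globin row tended to be high on the others. Spearman's rho over the 30 calves was 0.637 for ENSBTAG00000038748 with ENSBTAG00000051412, 0.643 for ENSBTAG00000038748 with ENSBTAG00000037644 and 0.599 for ENSBTAG00000051412 with ENSBTAG00000037644. Pearson's r on log2 CPM was 0.795, 0.743 and 0.729. Without the 3 calves with the most globin, rho was 0.502, 0.51 and 0.449 over 27 calves, so the rows still went together in the rest. The rows of a pair come from the same library and share its depth, and these correlations are given as a description.

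In dams, the same correlations rest on a row with few reads. In control dams rho was 0.461 for ENSBTAG00000038748 with ENSBTAG00000037644 and 0.427 for ENSBTAG00000051412 with ENSBTAG00000037644, and it was -0.34 between both sparse rows. The corresponding values in direct HS dams were 0.225, 0.0798 and 0.015. With 0 to 12 reads per dam on the sparse rows, nothing is read from these values.

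**Figure D3:**
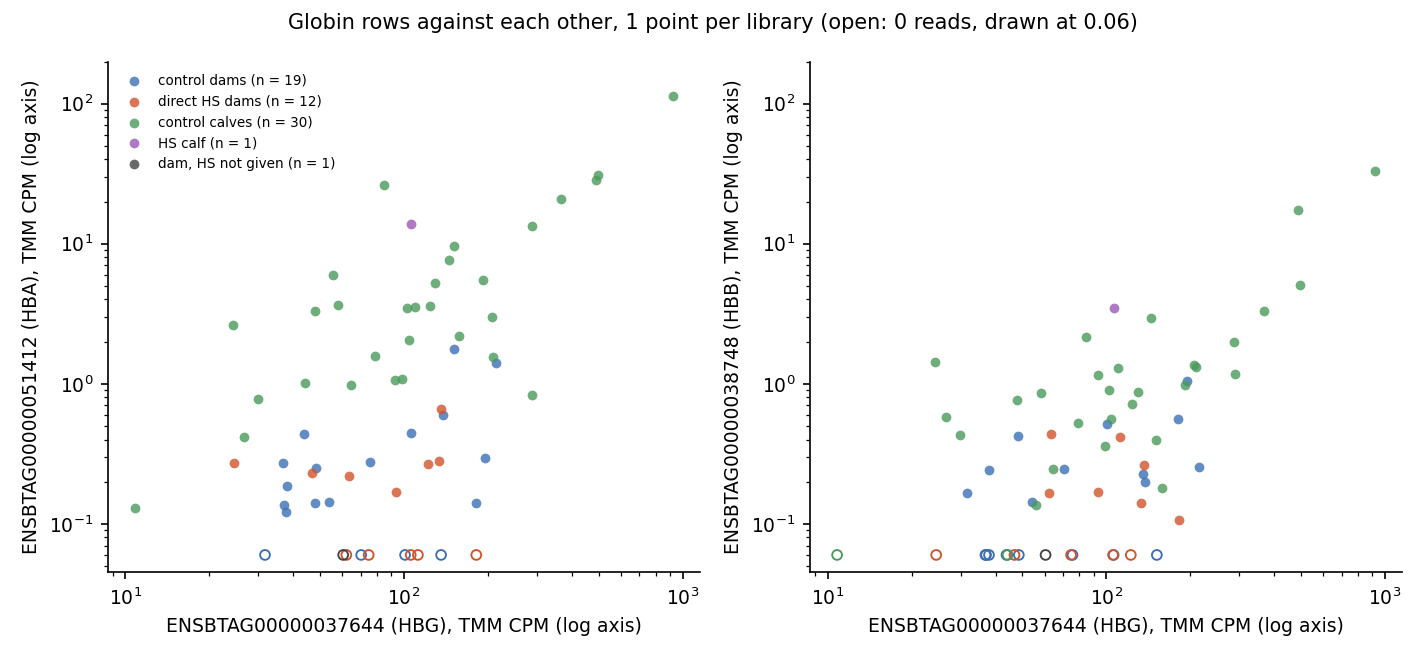
TMM CPM of ENSBTAG00000051412 (left) and ENSBTAG00000038748 (right) against ENSBTAG00000037644, both axes on a log scale, with 1 point per library coloured by group and open points for 0 reads, drawn at 0.06. Calves lie along a rising band with Spearman's rho of 0.599 (left) and 0.643 (right), whereas dams with the same level of ENSBTAG00000037644 mostly lie lower on the left.

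Library size was compared with 2 of the rows by group. It is the divisor of CPM and of the shares of reads, so it is not independent of the levels. The 6 relations were tested by permutation with 100000 resamples, two-sided, with Benjamini-Hochberg adjustment over the 6. For ENSBTAG00000037644, Spearman's rho with the number of reads on genes was 0.0158 in control dams (permutation p = 0.951, adjusted 0.951), 0.224 in direct HS dams (permutation p = 0.484, adjusted 0.581) and -0.247 in control calves (permutation p = 0.189, adjusted 0.579). Pearson's r was 0.0907 (permutation p = 0.718), -0.0623 (permutation p = 0.844) and -0.3 (permutation p = 0.107), with adjusted p of 0.844, 0.844 and 0.64. No relation of this row to library size passed the test.

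For ENSBTAG00000038748, rho was 0.311 in control dams (permutation p = 0.194, adjusted 0.579), 0.334 in direct HS dams (permutation p = 0.29, adjusted 0.579) and -0.163 in control calves (permutation p = 0.389, adjusted 0.581). Pearson's r was 0.204 (permutation p = 0.404), 0.246 (permutation p = 0.443) and -0.104 (permutation p = 0.575), each with an adjusted p of 0.844. After leaving out the 2 animals with library sizes farthest from the median, r was 0.413, 0.434 and -0.0615 for this row and 0.0783, 0.304 and -0.196 for ENSBTAG00000037644. None of the 6 relations passed the test, which does not show that library size has no relation to the rows.

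Genes that varied most like ENSBTAG00000037644 between animals were looked for among all genes whose counts averaged 14 or more, leaving out the globin rows. In control dams they were led by ENSBTAG00000004024 (Spearman's rho 0.83, n = 19) and ENSBTAG00000052758 (0.819). In direct HS dams they were led by ENSBTAG00000031012 (0.93, n = 12) and ENSBTAG00000003788 (0.902). In control calves they were led by ENSBTAG00000015044 (0.911, n = 30) and ENSBTAG00000001662 (0.902). These genes could not be given a symbol, and nothing is said of their function. A rho above 0.7 was found for 229 of 11733 genes in control calves, 71 of 11667 in control dams and 78 of 11594 in direct HS dams, and these counts are not comparable because the groups differ in size.

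The 50 genes most like this row in one group were then looked at in the other groups, which had no part in choosing them. The list from control dams had a median rho of 0.791 in control calves (0.309 to 0.899), and 50 of its 50 genes were above 0, against 46.8% of all genes. The list from control calves had a median rho of 0.684 in control dams (0.244 to 0.802), and again 50 of 50 were above 0, against 48.3% of all genes. Of each list, 13 genes (26%) were in both, among them ENSBTAG00000011961 with a rho of 0.802 in control dams and 0.885 in control calves. The genes that went with the row in control dams thus also went with it in control calves.

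Direct HS dams gave a less clear picture. The lists from control dams and control calves had median rho of 0.301 and 0.385 in the 12 direct HS dams, with 45 of 48 and 48 of 50 genes above 0, against 50% of all genes. The list chosen on direct HS dams had a median rho of -0.0228 in control dams and -0.0505 in control calves, and 0 of its genes were in either of the other lists. This list rests on 12 animals, and whether the groups differ in this was not tested. Without the 3 calves with the most globin, 47 of the 50 genes of the calf list remained, so that list did not rest on them. Depth, scaling and the composition of each library are shared by all genes in it, and their part in these correlations was not tested.

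**Figure D4:**
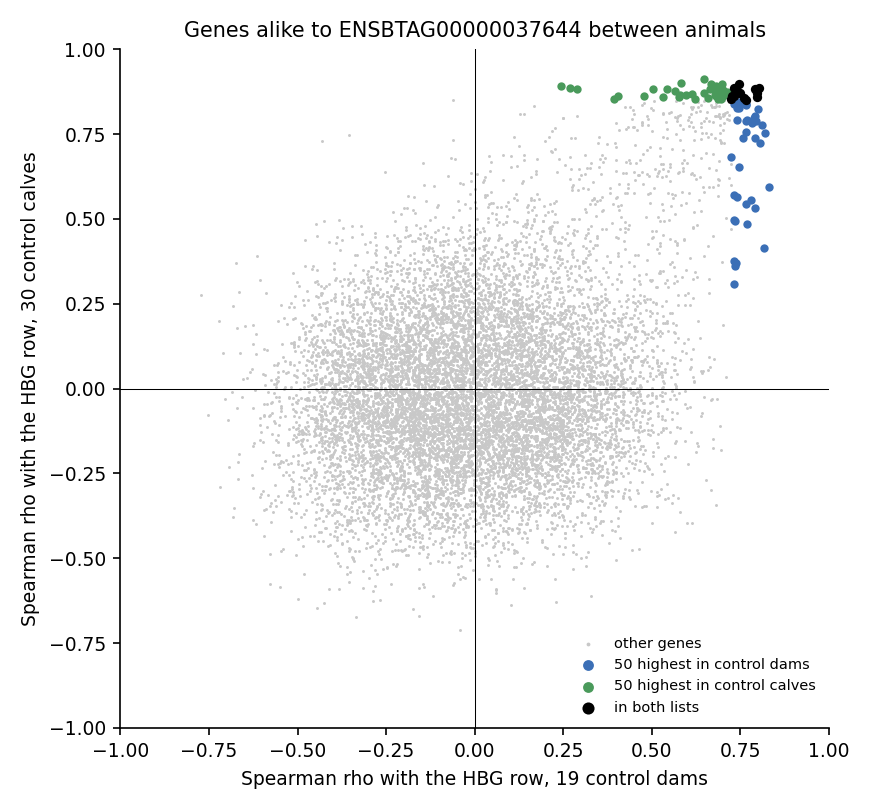
Spearman's rho of each gene with ENSBTAG00000037644 over the 19 control dams (x axis) and the 30 control calves (y axis); coloured points are the 50 genes with the highest rho in control dams, in control calves or in both. All coloured points have a rho above 0 on both axes, with 13 genes in both lists, whereas the other genes spread around 0.

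The same search for ENSBTAG00000038748 gave ENSBTAG00000008300 (Spearman's rho 0.792) and ENSBTAG00000008350 (0.768) in control dams and ENSBTAG00000034182 (0.721) and ENSBTAG00000021416 (0.707) in control calves. In direct HS dams the search was led by ENSBTAG00000017232 (0.935, n = 12). This row had 0 to 7 reads per library in control dams and 0 to 4 in direct HS dams, so its likeness to other genes there is not read as a finding. In control calves, where it had a median of 8 reads, 3 genes had a rho above 0.7 with it, and with so few reads this number is not comparable with that of ENSBTAG00000037644. The leading gene in calves, ENSBTAG00000034182, had a Pearson's r of 0.488 with it.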

How the data were processed

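RNA of leukocytes was captured on oligo-dT beads after red cell lysis, prepared with the Lexogen SENSE mRNA-seq kit and sequenced by the authors. The authors deposited whole counts of reads per Ensembl gene and library, without normalization, made with cutadapt 4.2, FastQC 0.12.1 and STAR 2.7.11a on ARS-UCD1.2, per the submitters' processing notes. STAR's gene counts take only reads with 1 mapping position. The strand column and the annotation release are not given in the sources used here.

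Groups were taken from the labels. The globin rows, lists and tests were chosen with earlier results of these data known. Counts were normalized by TMM in edgeR 4.0.16 (R 4.3.3), and a prior count of 2 was added for log2 CPM. Direct HS and control dams, and control calves and control dams, were compared by edgeR's quasi-likelihood test without covariates, since those of the study are not in the labels, over genes whose counts averaged 14 or more in the libraries compared, with Benjamini-Hochberg adjustment. The SE was the log2 fold change divided by the square root of F. The p-values measure the spread between these samples only. On counts simulated from the same animals with 200 changed genes, 193 were found for the dams, with 5 false calls among 11394 unchanged genes. For calves against dams, 193 were found, with 12 false calls among 11523. How recovery depends on the size of a change was not tested. Of the 310 genes called in the real dams, 46 had a log2 fold change beyond 0.58 in either direction. The 193 is therefore not read as the share of real differences found. Correlations and permutation tests used scipy 1.17.1, tables pandas 2.3.3 and figures matplotlib 3.10.9 in Python 3.11. Libraries with 0 reads entered the levels, shares and spreads as 0. A floor of 3 reads was used only to bound the level of HS-IU_1804 on rows without a read.

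Genes named are the globin rows and the genes most like them. The annotation at hand gave Ensembl identifiers for 0 of its 37063 genes, so no symbol was matched, and the planned erythroid, clearance and cell type lists, and the relation to the erythroid list, were not run. No sequence is printed for the same reason. Alternatives were DESeq2 1.42.0, limma-voom (limma 3.58.1), other scaling and filters, another prior count, Pearson's r, and each library left out. The alternatives without the 3 calves with the most globin, the spread without single calves, and ENSBTAG00000037644 in place of ENSBTAG00000038748 for library size and likeness, were added after the data were seen.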

Additional observations from a re-analysis of the deposited data

How the results depend on the processing

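Of 133 alternative values other than single libraries left out, 116 stayed on the same side or within the spread and 17 moved. The 310 genes called by direct HS were 136 without a filter on low counts and 503 with DESeq2. With each dam left out they were 130 (without HS-IU_1516) to 599 (without HS-IU_1568), and they moved over 1.5 times without 11 others: HS-IU_1439 (204), HS-IU_1460 (164), HS-IU_1662 (197), HS-IU_1721 (165), HS-IU_1727 (198), HS-IU_1800 (162), HS-IU_1808 (201), HS-IU_1811 (191), HS-IU_1817 (206), HS-IU_1837 (189) and HS-IU_1863 (196). Without scaling factors, 15.5% of these calls were higher, against 28.7%, and 35.8% against 56.2% in calves, where the median log2 fold change of all genes went from 0.03 to -0.07 and the globin rows stayed higher in calves. The 4665 calls of calves against dams ranged from 4435 to 4732. The log2 fold change by direct HS of ENSBTAG00000037644 changed sign, from -0.06 (without HS-IU_1853) to 0.17 (without HS-IU_1577). In calves it was 0.68 (without HS-IU_2026) to 1.03. That of ENSBTAG00000051412 was 4.17 (without HS-IU_2026) to 5.12, and 1.89 as a difference of medians of log2(CPM + 1). That of ENSBTAG00000038748 was 3.49 to 3.87 over 47 libraries left out (without HS-IU_2026 or HS-IU_2032 it fell below the count limit), 0.69 as the same difference of medians and 2.10 without the 3 calves. With limma-voom the calf folds were 2.37 for ENSBTAG00000038748, 3.61 for ENSBTAG00000051412 and 0.57 for ENSBTAG00000037644. The cause was not tested. Lists of 50 genes by Pearson's r shared 33, 20 and 32 genes with those by rho for ENSBTAG00000037644 and 26, 28 and 25 for ENSBTAG00000038748 in control dams, direct HS dams and calves. Both sparse rows had at most 12 reads per dam. No paired analysis was possible because the labels give no shared replicate numbers or dam-calf pairs.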

Other observations

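The single calf labelled with HS, HS-IU_2048, had 704 reads on ENSBTAG00000037644, 91 on ENSBTAG00000051412 and 23 on ENSBTAG00000038748. Its level of ENSBTAG00000037644 was 106.4 CPM, and 15 of the 30 control calves and 11 of the 31 dams with an HS status were higher. Its level of ENSBTAG00000051412 was 13.8 CPM, exceeded by 5 control calves, and its level of ENSBTAG00000038748 was 3.48 CPM, exceeded by 3. None of the 31 dams was higher on either of these rows. ENSBTAG00000051412 was 11.1% of its globin reads, and 1 control calf had a higher share. With 1 calf, HS in calves was not tested.

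The dam without an HS status, HS-IU_1804, had 330 reads on ENSBTAG00000037644, which were 60.5 CPM, and 20 of the 31 other dams and 22 of the 30 control calves were higher. As this library was nearer to calves than to dams on 94 of 130 genes that separate them, its values may not stand for a dam. It had 0 reads on ENSBTAG00000051412 and on ENSBTAG00000038748, which allows up to 0.55 CPM on each by a count of 3. On ENSBTAG00000051412, 9 of the 31 other dams and 0 of the 30 control calves had no read, and on ENSBTAG00000038748, 13 dams and 2 calves had none.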
